A study of Mus musculus with 13 samples.

Results

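The G1 cyclins and CDK inhibitors considered here are 10 genes: the D-type cyclins Ccnd1, Ccnd2 and Ccnd3, their kinase Cdk6, the INK4 inhibitors Cdkn2a, Cdkn2b and Cdkn2c, and the CIP/KIP inhibitors Cdkn1a, Cdkn1b and Cdkn1c. They were chosen by name, with earlier results of these data known, and their Ensembl identifiers were looked up in the GENCODE M21 annotation of mouse. All 10 were found among the 49315 gene identifiers of both deposited count tables, and all 10 passed the filter on low counts in both comparisons. Bulk RNA had been sequenced from B16F10 tumours and from the lymph nodes that drain them (tdLN), each taken as whole tissue. Tumour-draining nodes came from 3 Foxp3Ctrl mice (control nodes) and 3 Foxp3ΔJag1 mice (ΔJag1 nodes), tumours from 3 Foxp3Ctrl mice, and libraries are numbered as in the labels. The 4 Foxp3ΔJag1 tumours of the labels were not analysed here.

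All mice were female, carried B16F10, a pigmented mouse melanoma line grown from culture, and had received tamoxifen. Dosing began when they were 6 to 8 weeks old and comprised 5 doses of 0.1 mg per g. A washout of 9 days followed, and then, at an age of up to 11 weeks, intradermal injection of 200000 tumour cells with matrigel in the left flank. Foxp3ΔJag1 mice carried Foxp3eGFP-Cre-ERT2, a tamoxifen-activated Cre recombinase made where the regulatory T cell (Treg) factor Foxp3 is expressed, and Jag1 fl/fl. Jag1 encodes the Notch ligand Jagged-1. The genotype label of the controls reads WT, whereas the design text gives the same Cre with Jag1 fl/wt. Since Cre acts only in Foxp3-expressing cells, Jag1 of the other cells of a node is not targeted. By their library names the control nodes and the tumours came from the same 3 mice.

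As background, a cell commits to dividing in the G1 phase. D cyclins, induced by growth signals, bind Cdk4 or Cdk6, and the complex phosphorylates the retinoblastoma protein, which frees E2F factors to switch on the genes of DNA replication. INK4 proteins bind Cdk4 and Cdk6 and keep D cyclins off, while CIP/KIP proteins bind cyclin and kinase complexes, chiefly those of Cdk2. In lymphocytes Ccnd2, Ccnd3 and Cdk6 serve antigen-driven division and Cdkn1b holds resting cells out of the cycle, and in melanocytes the Cdkn2a locus is a classical barrier to transformation.

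Library totals lay between 32117478 and 44540888 counts. Markers followed the labelled tissues: the summed level of 7 B cell genes was 3421 to 3875 CPM (a count divided by the library total, scaled to 1000000) in the nodes and 2.32 to 4.07 in the tumours. Summed over 8 T cell genes it was 1239 to 1628 CPM in nodes and 28.7 to 52.6 in tumours. For 8 pigment cell genes it was 10.8 to 37.3 CPM in nodes and 18533 to 24314 in tumours, with 1 to 3 of them (among Tyrp1, Mlana, Dct and Slc45a2) at 0 in 4 of the 6 nodes. A list of 18 genes of cycling cells summed to 1140 to 1578 CPM in control nodes, 1114 to 1423 in ΔJag1 nodes and 3008 to 3562 in tumours. Libraries also differed within groups in the 6 adipocyte genes, which summed to 20.7, 83.1 and 199 CPM in the control nodes, 251, 25.2 and 20.6 in the ΔJag1 nodes and 287, 320.4 and 33.6 in the tumours. The targeted gene Jag1 lay between 22.0 and 24.4 CPM in control nodes and between 20.7 and 27.8 in ΔJag1 nodes (log2 fold change 0.03 ± 0.11 SE, edgeR adjusted p = 0.984), so that the RNA of the whole node did not show the labelled deletion.

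Within the control nodes the 10 genes spanned a wide range of levels. Levels were compared per length, as CPM per kilobase (kb) of merged exon. This length joins every annotated exon of a gene, 1172 bases for Cdkn2a and 13989 for Cdk6, whether or not these tissues use it. Orders and shares between genes depend on it and are not numbers of transcripts. On this scale Cdkn1b (p27Kip1) was highest at 45.01 ± 4.01 (SD, n = 3). Ccnd2 followed at 31.5 ± 2.02, and Ccnd3 (18.3 ± 1.01) and Ccnd1 (17.5 ± 4.54) came next with libraries that overlapped. Cdkn2c (10.0 ± 1.37) and Cdkn1a (8.35 ± 1.52) also overlapped each other. Cdk6 lay at 4.29 ± 0.346, above Cdkn2b (3.34 ± 0.328) and Cdkn2a (3.06 ± 0.207), which overlapped, and Cdkn1c was lowest at 1.84 ± 0.281. The ΔJag1 nodes had the same order except that Cdkn2b came before Cdk6, with libraries of Cdkn2b, Cdk6 and Cdkn2a that overlapped. In tumours Ccnd2 (53.03 ± 6.68), Cdkn1a (42.9 ± 17.6), Cdkn1b (38.5 ± 4.12) and Ccnd1 (33.9 ± 4.23) stood at the top and each overlapped the next. Cdkn2c (22.6 ± 2.82) and Ccnd3 (18.6 ± 3.64) overlapped below them, Cdk6 was at 1.81 ± 0.233, and Cdkn2b (0.452 ± 0.191) overlapped Cdkn1c (0.388 ± 0.0761). Cdkn2a was lowest, at 0.248 ± 0.0193 CPM per kb.

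**Figure D1:**
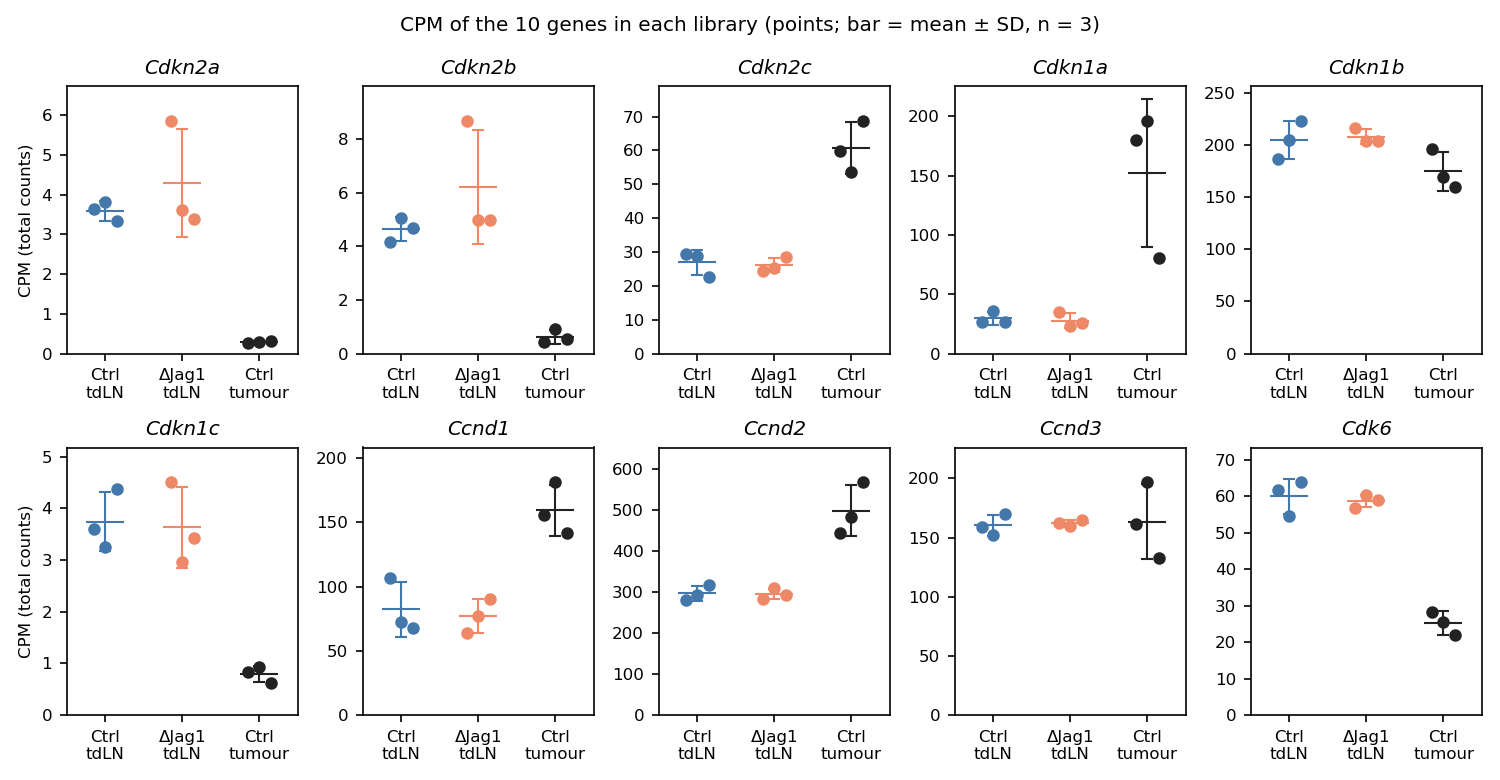
CPM (vertical axes, from 0, a separate scale per gene) of the 10 genes in each library, with points for libraries and horizontal bars for the mean ± SD of 3. Tumour points lie clear of all nodes for 8 genes but not for Cdkn1b, where tumour 1 falls among the nodes, or Ccnd3, while points of the 2 node groups intermingle for every gene.

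The comparison of tumours with control nodes asked how the G1 genes differ between a melanoma mass and the node that drains it. Of the 10 genes, 4 were higher in tumours (Cdkn1a, Cdkn2c, Ccnd1 and Ccnd2), 4 were lower (Cdkn2a, Cdkn2b, Cdkn1c and Cdk6) and 2 were not called (Cdkn1b and Ccnd3). The count of 8 called has to be read against a background of 73.2% of the 18566 genes tested, 35.6% higher and 37.6% lower, so that the share of called genes is close to that of all genes. Likewise the 8 genes whose tumour and node libraries did not overlap compare with 77.9% of all genes. The median log2 fold change of the 10 genes was -0.04, and that of all genes tested was -0.05. In bulk RNA fewer cells of a type and less RNA per cell cannot be told apart.

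Among the D cyclins, Ccnd1 and Ccnd2 were higher in tumours and Ccnd3 was not called. Ccnd2 (ENSMUSG00000000184, GRCm38 chr6:127125162-127152193, minus strand), the D cyclin of many haematopoietic cells, had 281, 292 and 318 CPM in control nodes 1 to 3 and 445, 484 and 568 CPM in tumours 1 to 3. Every tumour lay above every node. The log2 fold change was 0.81 ± 0.11 (SE), or 1.75-fold (edgeR adjusted p = 0.000329), and the tumour was the higher in 3 of 3 mice. Ccnd1 (ENSMUSG00000070348, chr7:144929931-144939925, minus strand), the D cyclin that mitogens induce in many adherent cells, measured 107, 72.3 and 67.8 CPM in control nodes and 156, 181 and 142 CPM in tumours. Control node 1 stood above the other nodes but below every tumour. Its log2 fold change was 1.01 ± 0.20, or 2.01-fold (edgeR adjusted p = 0.00235). Of its 4709 exonic bases, 1100 are shared with LTO1 on the opposite strand, which had 16.7 to 32.3 CPM, and without a known strand setting reads from these bases cannot be assigned.

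Ccnd3 (ENSMUSG00000034165, chr17:47505051-47599691, plus strand), which lymphocyte precursors need to expand, had 159, 152 and 170 CPM in control nodes and 161, 197 and 133 CPM in tumours. The tumours spread on both sides of the nodes. The log2 fold change was 0.09 ± 0.14, with a 95% interval of -0.25 to 0.42 (edgeR adjusted p = 0.596), and 361 of its 8775 exonic bases are shared with Bysl on the other strand. As a share of D cyclin counts per kb, Ccnd3 made up 25.7 to 28.7% in control nodes and 14.3 to 19.9% in tumours, without overlap. Ccnd1 took 21.3 to 32.1% in control nodes and 28.5 to 34.2% in tumours, and Ccnd2 42.2 to 50.02% and 45.8 to 57.1%, both with overlap. The summed D cyclin level rose from a range of 63.7 to 70.6 CPM per kb in control nodes to 98.7 to 112 in tumours. Beside these values, 17 of the 18 cycling cell genes were called higher in tumours, with a median log2 fold change of 1.52; its part in the cyclin values was not tested.

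Cdk6, the D cyclin kinase used by lymphocytes and their precursors, was lower in tumours, whereas its partner in function Cdk4 was higher. Cdk6 (ENSMUSG00000040274, chr5:3341485-3531008, plus strand) had 61.7, 54.6 and 63.8 CPM in control nodes and 28.4, 25.6 and 21.9 CPM in tumours. All tumours lay below all nodes. The log2 fold change was -1.19 ± 0.12, or 2.28-fold lower (edgeR adjusted p = 4.78e-05). Cdk4, which is not among the 10 genes, had 124, 108 and 110.4 CPM in control nodes and 264, 254 and 259 CPM in tumours (log2 fold change 1.24 ± 0.10, edgeR adjusted p = 1.41e-05). It shares 641 of 3249 exonic bases with Tspan31 on the opposite strand. Of the Cdk4 and Cdk6 counts per kb, Cdk6 contributed 10.3 to 11.8% in control nodes, 10.3 to 10.8% in ΔJag1 nodes and 1.93 to 2.43% in tumours. The sum of the kinases was 37.1 to 42.6 CPM per kb in control nodes and 79.9 to 83.3 in tumours. All 7 B cell and all 8 T cell markers were called lower in tumours together with Cdk6, and their part in its level was not tested.

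**Figure D2:**
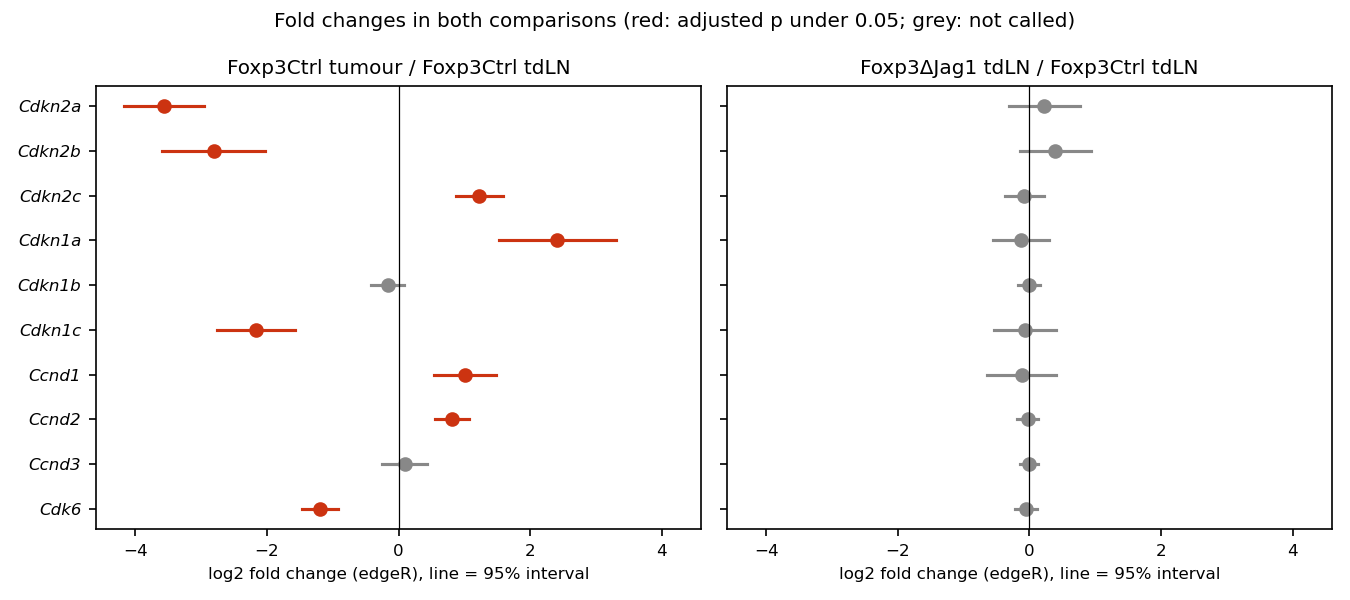
Log2 fold change (horizontal axis) of each gene in the comparison of tumours with control nodes and in that of ΔJag1 with control nodes, with bars for the 95% interval. Between tissues 4 genes lie above 0 and 4 below it with an adjusted p under 0.05, and between genotypes none does.

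The INK4 genes split. Cdkn2a and Cdkn2b, neighbours on chromosome 4, were lower in tumours than any other of the 10 genes relative to the nodes, and Cdkn2c, elsewhere on the same chromosome, was higher. Cdkn2a (ENSMUSG00000044303, chr4:89274471-89294653, minus strand) encodes p16Ink4a and, from another promoter and reading frame, p19Arf, which restrains Mdm2. Its row of the table sums both, so they cannot be separated. Cdkn2a counts were 132, 164 and 118 in control nodes, or 3.63, 3.81 and 3.33 CPM, and 10, 12 and 10 in tumours, or 0.266, 0.293 and 0.311 CPM. The nodes were tightly grouped and far above the tumours, in which the exact Poisson 95% interval of the first library, for counting error only, runs from 0.128 to 0.490 CPM. Its log2 fold change was -3.56 ± 0.26, 11.8-fold lower (edgeR adjusted p = 1.00e-05). Within the 3 mice the log2 ratios of tumour to node were -3.77, -3.70 and -3.42.

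Cdkn2b (ENSMUSG00000073802, chr4:89306299-89311039, minus strand) encodes p15Ink4b, an inhibitor induced by TGF-beta. It had 4.16, 5.06 and 4.71 CPM in control nodes and 0.426, 0.928 and 0.529 CPM in tumours, from 16, 38 and 17 counts. Tumour 2 stood above the other tumours and still below every node. Here the log2 fold change was -2.81 ± 0.34, 7.03-fold lower (edgeR adjusted p = 0.000136). Cdkn2c (ENSMUSG00000028551, chr4:109660876-109667189, minus strand), which encodes p18Ink4c and restrains lymphocyte and plasma cell division, had 29.3, 28.8 and 22.7 CPM in control nodes and 59.8, 53.7 and 68.7 CPM in tumours. No tumour overlapped the nodes, and the log2 fold change was 1.22 ± 0.15, or 2.33-fold (edgeR adjusted p = 0.000183). The remaining INK4 gene, Cdkn2d (p19Ink4d), is not among the 10 and was lower in tumours, at 44.6 ± 3.79 CPM in control nodes and 30.7 ± 1.54 in tumours (SD, n = 3; log2 fold change -0.49 ± 0.11, edgeR adjusted p = 0.00464).

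Summed over the 4 INK4 genes, the level per kb overlapped between tissues, at 42.2 to 48.7 CPM per kb in control nodes and 40.2 to 46.8 in tumours, but its make-up differed. Cdkn2c supplied 19.98 to 25.1% of INK4 counts per kb in control nodes and 49.7 to 54.6% in tumours. Cdkn2d supplied 60.9 to 65.3% and 44.0 to 48.0%. Cdkn2a and Cdkn2b together thus gave way: Cdkn2a from 6.67 to 7.14% down to 0.548 to 0.622%, and Cdkn2b from 6.89 to 8.02% down to 0.739 to 1.66%. None of these 4 shares overlapped between the tissues.

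**Figure D3:**
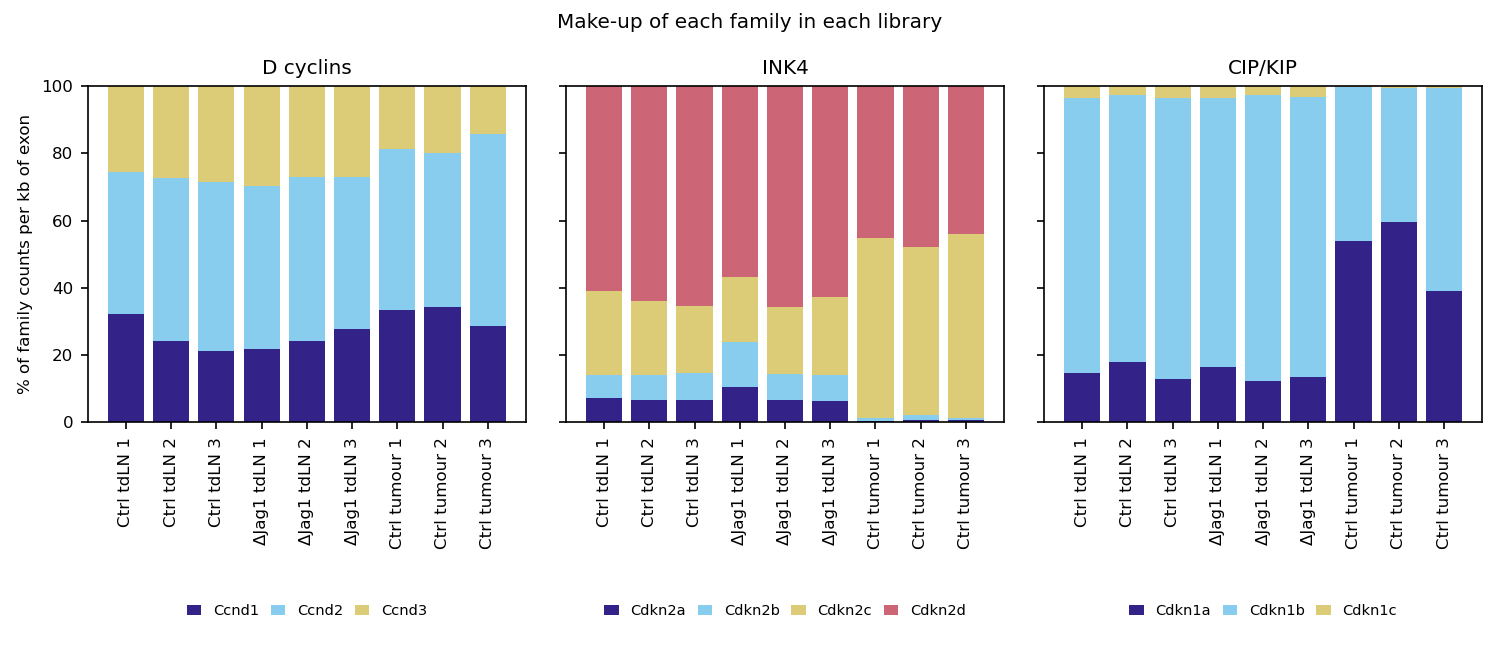
Share of each gene (vertical axis, percent of the counts per kb of exon) in the D cyclins, the INK4 genes and the CIP/KIP genes, with 1 stacked bar for each of the 9 libraries. In tumours Cdkn2c takes 49.7 to 54.6% of INK4 counts and Cdkn1a 39.1 to 59.4% of CIP/KIP counts, above every node in both cases.

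Promoter windows of these genes show how their starts differ in sequence. The RefSeq table on GRCm38.p6 held 300-base windows, from 250 bases before to 50 bases after a transcription start, for 7 of the 10 genes (11 windows). Those of Cdkn1c, Ccnd1 and Ccnd2 were not used here. Printed below are both starts of Cdkn2a and the start of Cdkn2b, which were low together in tumours, and the upstream start of Cdkn2c, which was high. Letters run 5′ to 3′ on the strand of the gene, and capitals mark matches to the GC box GGGCGG and to an E2F site (TTTCCCGC, TTTGGCGC, TTTCGCGC or TTTGCCGC), each searched on both strands. The TATA box TATAAA, the E box CACGTG and the p53 consensus decamer were searched as well and had no match in these 4 windows. The matches do not overlap.
Cdkn2a upstream start, the Arf start (chr4:89294570-89294869, minus strand): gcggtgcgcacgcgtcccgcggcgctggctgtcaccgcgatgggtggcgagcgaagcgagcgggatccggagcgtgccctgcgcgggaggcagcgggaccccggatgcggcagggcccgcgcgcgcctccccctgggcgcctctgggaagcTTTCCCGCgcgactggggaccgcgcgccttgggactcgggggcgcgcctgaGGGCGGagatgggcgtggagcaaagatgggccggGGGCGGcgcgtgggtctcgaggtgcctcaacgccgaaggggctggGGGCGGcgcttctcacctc
Cdkn2a downstream start, the Ink4a start (chr4:89282143-89282442, minus strand): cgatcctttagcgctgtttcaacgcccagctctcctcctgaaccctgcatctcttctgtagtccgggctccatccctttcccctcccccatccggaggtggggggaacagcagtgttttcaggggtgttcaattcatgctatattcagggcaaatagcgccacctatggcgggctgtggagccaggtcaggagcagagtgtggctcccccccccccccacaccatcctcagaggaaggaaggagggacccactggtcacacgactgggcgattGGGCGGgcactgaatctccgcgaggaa
Cdkn2b (chr4:89310983-89311282, minus strand): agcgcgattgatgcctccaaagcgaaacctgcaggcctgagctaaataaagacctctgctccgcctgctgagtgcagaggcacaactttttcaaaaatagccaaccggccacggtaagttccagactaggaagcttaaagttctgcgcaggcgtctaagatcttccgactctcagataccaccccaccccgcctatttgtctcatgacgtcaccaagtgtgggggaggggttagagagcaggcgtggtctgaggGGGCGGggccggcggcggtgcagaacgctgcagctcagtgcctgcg
Cdkn2c upstream start (chr4:109666707-109667006, minus strand): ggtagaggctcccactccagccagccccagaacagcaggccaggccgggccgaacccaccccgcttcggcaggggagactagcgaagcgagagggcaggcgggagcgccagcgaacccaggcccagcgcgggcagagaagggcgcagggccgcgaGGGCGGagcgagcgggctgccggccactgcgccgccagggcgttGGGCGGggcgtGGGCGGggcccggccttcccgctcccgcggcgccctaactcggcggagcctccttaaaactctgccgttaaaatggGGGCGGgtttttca
The Cdkn2a upstream window holds 45 CpG dinucleotides, 3 GC boxes and 1 E2F match beginning at position -99 from the start, and its downstream window 12 CpG and 1 GC box. The Cdkn2b window has 18 CpG and 1 GC box, and the upstream window of Cdkn2c 33 CpG and 4 GC boxes. The downstream window of Cdkn2c, not printed, has 8 CpG, no GC box and 1 E box. Over all 32817 windows of the table the median was 7 CpG, 35.6% had a GC box and 2.26% an E2F match. These are matches of letters only.

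Genes around Cdkn2a were read for comparison. Within 1 Mb on either side lie 39 other protein-coding genes, of which 19, many of them interferon genes, had no count in any library and 8 were tested in tumours against control nodes. Hacd4, Klhl9 and Mtap were called higher in tumours, Cdkn2b and Dmrta1 lower, and Focad, Gm26566 and Gm13283 were not called. Mtap, the methionine salvage enzyme whose gene lies 93.4 kb from Cdkn2a towards lower coordinates, had 45.3, 36.7 and 42.8 CPM in control nodes and 102, 149 and 107 CPM in tumours (log2 fold change 1.58 ± 0.16, edgeR adjusted p = 6.84e-05). Dmrta1, 384.8 kb away towards higher coordinates, had 63, 97 and 93 counts in control nodes and 0, 1 and 3 counts in tumours (log2 fold change -5.73 ± 0.60, edgeR adjusted p = 6.78e-05). The calls of these neighbours stand against 73.2% called among all genes tested, 35.6% higher and 37.6% lower. A pattern along the chromosome was not tested. Non-coding genes nearby, singled out after their values were seen, were thinly covered. Gm12606, 1.1 kb from Cdkn2a, had 13 counts summed over the control nodes and 0 over the tumours, where a count of 0 allows up to 3 counts or 0.0271 CPM. Gm12602, 146.2 kb away towards lower coordinates, had 1 count in control nodes and 84 in tumours. The DNA of this region was not measured.

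**Figure D4:**
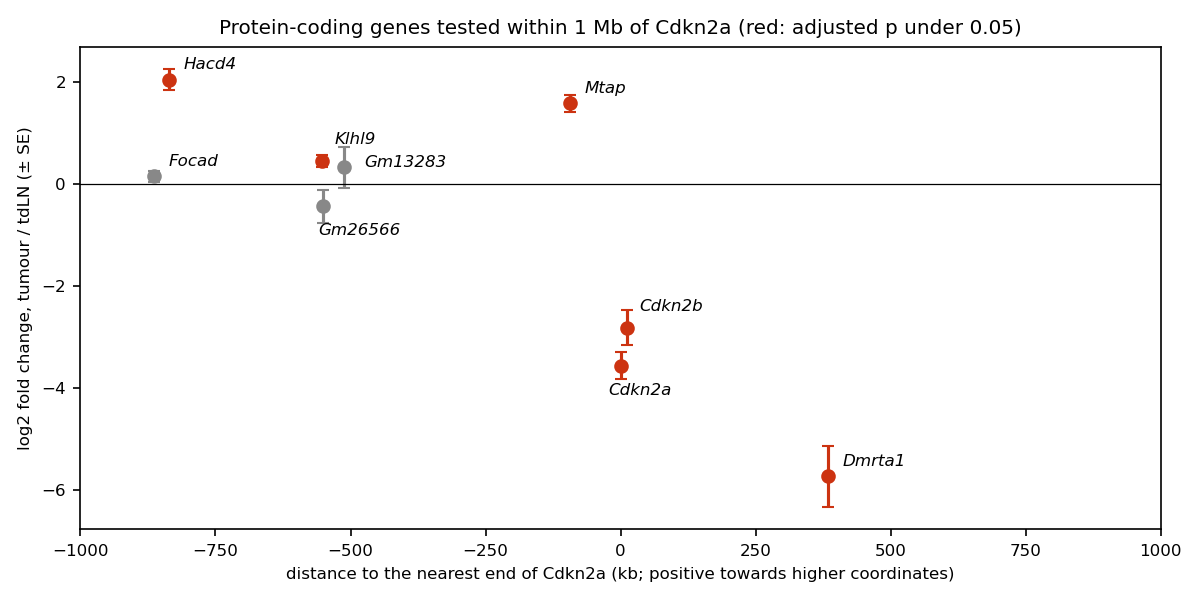
Log2 fold change of tumours over control nodes (vertical axis, ± SE) of the protein-coding genes tested within 1 Mb of Cdkn2a, against their distance from its nearest end in kb (horizontal axis, positive towards higher coordinates). Mtap lies at 1.58, Cdkn2a at -3.56, Cdkn2b at -2.81 and Dmrta1 at -5.73.

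In the CIP/KIP family Cdkn1a was higher in tumours, Cdkn1c lower, and Cdkn1b not called. Cdkn1a (ENSMUSG00000023067, chr17:29090976-29100727, plus strand) encodes p21Cip1, the best known target of p53. It had 26.2, 35.9 and 26.9 CPM in control nodes and 180.3, 196 and 80.7 CPM in tumours. Every tumour exceeded every node, but tumour 3 lay far below the other tumours. The log2 fold change was 2.41 ± 0.37, or 5.33-fold (edgeR adjusted p = 0.00106), and the log2 ratios within mice were 2.78, 2.45 and 1.58. Without tumour 3 it was 2.75 in the same test. Tumour 3 also had the lowest summed adipocyte level, 33.6 CPM, and the lowest fibroblast level of the tumours, 1559 CPM against 4485 and 2232. Its 6 skeletal muscle genes summed to 275 CPM, against 4.23 and 4.59 in tumours 1 and 2, and the part of these cells in Cdkn1a was not tested.

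Of the Cdkn1a windows the upstream one is printed because its matches are to the p53 consensus decamer, in capitals, which begin at positions -73 and -51 from the start. Such a match, on either strand, occurs in 8.36% of all windows of the table.
Cdkn1a upstream start (chr17:29090729-29091028, plus strand): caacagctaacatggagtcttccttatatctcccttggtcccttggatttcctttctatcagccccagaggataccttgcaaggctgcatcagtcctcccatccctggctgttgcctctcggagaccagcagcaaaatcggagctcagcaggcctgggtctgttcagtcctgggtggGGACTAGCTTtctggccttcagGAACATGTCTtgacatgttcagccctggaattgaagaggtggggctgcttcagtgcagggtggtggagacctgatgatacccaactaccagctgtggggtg
This window has 2 CpG and no GC box, against 23 CpG and 2 GC boxes at the downstream start of the same gene. The letters alone say nothing of binding in these tissues.

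Cdkn1b (ENSMUSG00000003031, chr6:134920401-134925513, plus strand), which encodes p27Kip1, had 187, 205 and 223 CPM in control nodes and 196, 169 and 159.7 CPM in tumours. Tumour 1 fell within the range of the nodes. The log2 fold change was -0.17 ± 0.11, with a 95% interval of -0.42 to 0.08 (edgeR adjusted p = 0.188), and the tumour was the lower in 2 of 3 mice. Cdkn1c (ENSMUSG00000037664, chr7:143458339-143461050, minus strand), the imprinted gene of p57Kip2, had 3.61, 3.25 and 4.37 CPM in control nodes. In tumours it had 0.825, 0.928 and 0.623 CPM, from 31, 38 and 20 counts. No libraries overlapped, and the log2 fold change was -2.17 ± 0.26, or 4.49-fold lower (edgeR adjusted p = 0.000133). By share of CIP/KIP counts per kb, Cdkn1b took 79.4 to 83.5% in control nodes and 40.1 to 60.4% in tumours. Cdkn1a took 12.9 to 17.8% and 39.1 to 59.4%, and Cdkn1c 2.81 to 3.65% and 0.430 to 0.526%. By counts per kb of merged exon the families therefore changed make-up in different ways. Cdkn1a joined Cdkn1b as the leading CIP/KIP gene on this scale, and Cdkn2c joined Cdkn2d as the leading INK4 gene.

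Other genes of the pathway were read in 5 lists, and the counts below stand against the 73.2% called among all genes. Of 11 further CDK partners and inhibitors of G1, 9 were higher in tumours, 1 lower and 1 not called (median log2 fold change 0.97, against -0.05 over all genes). Cdk2, the kinase of cyclin E, had 54.6, 57.4 and 55.3 CPM in control nodes and 611, 566 and 728 CPM in tumours (log2 fold change 3.56 ± 0.13, edgeR adjusted p = 3.96e-07). It shares 34 of 6219 exonic bases with Pmel on the opposite strand, a pigment gene at 3.44 CPM in its lowest library and 6510.0 in its highest. The 5′ ends of Cdk2 and Pmel overlap on chromosome 10, from position 128704195 to 128705031. Without a known strand setting reads from the shared exonic bases cannot be assigned. The 1 lower gene was Cdkn2d. Both E cyclins were higher, Ccne1 at 0.69 ± 0.17 and Ccne2 at 0.93 ± 0.20 on the log2 scale (edgeR adjusted p = 0.00714 and 0.00330).

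Of 18 pocket protein and E2F genes, 7 were higher, 5 lower and 6 not called (median 0.13). E2f1, an activator of replication genes, rose from 19.3 ± 2.88 to 67.7 ± 13.9 CPM (SD, n = 3; log2 fold change 1.86 ± 0.20 SE), and E2f3 from 19.6 ± 1.39 to 51.0 ± 5.50 CPM. E2f2 fell from 74.3 ± 8.59 to 17.9 ± 2.29 CPM (log2 fold change -2.01 ± 0.16). Rb1, the retinoblastoma gene, fell from 64.2 ± 6.07 to 22.7 ± 5.17 CPM (-1.45 ± 0.17). On the opposite strand Rcbtb2 (27.9 to 49.0 CPM) shares 488 of its 6015 exonic bases and Lpar6 (8.37 to 51.6 CPM) shares 408. The edgeR adjusted p-values of E2f1, E2f3, E2f2 and Rb1 were 7.37e-05, 1.94e-05, 1.31e-05 and 0.000118.

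Of 18 genes of the p53 axis, 5 were higher, 8 lower and 5 not called (median -0.14), while Cdkn1a, a target outside this list, was higher. Phlda3 rose from 9.95 ± 0.994 to 73.6 ± 12.9 CPM and Zmat3 from 23.7 ± 0.750 to 60.1 ± 8.77 CPM (SD, n = 3), both being p53 targets. Btg2, an antiproliferative gene also under p53, fell from 200.0 ± 13.0 to 8.58 ± 2.41 CPM, and Sesn1 from 82.1 ± 1.59 to 20.1 ± 1.86 CPM. In edgeR the adjusted p-values were 2.77e-06, 3.79e-05, 1.20e-06 and 1.60e-06. Trp53 itself had a log2 fold change of -0.36 ± 0.10 (edgeR adjusted p = 0.0124), and Mdm2, which degrades p53, was not called at -0.15 ± 0.09 (edgeR adjusted p = 0.164).

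In a list of 14 genes linked to the turnover of cyclin D and p27, 10 were higher, 2 lower and 2 not called (median 0.92). These counts do not measure turnover itself. Skp2, which marks p27 for destruction, rose from 9.95 ± 1.16 to 44.0 ± 4.92 CPM (log2 fold change 2.20 ± 0.15, edgeR adjusted p = 7.52e-06). Cdkn1b RNA was not called, and p27 protein, on which Skp2 acts, was not measured here. Cryab, which helps to recruit cyclin D1 for degradation, rose from 3.94 ± 0.378 to 177 ± 31.2 CPM (5.55 ± 0.16, edgeR adjusted p = 1.71e-07). It shares 252 of 1479 exonic bases with Hspb2 on the opposite strand, which had 0.511 to 23.2 CPM. Fbxw7, which marks cyclin E, fell by 0.72 ± 0.09 on the log2 scale and Ambra1, a receptor for the D cyclins, by 0.28 ± 0.08 (edgeR adjusted p = 0.000206 and 0.0115). Of 23 polycomb and transcription regulators of the inhibitor genes, 6 were higher, 12 lower and 5 not called (median -0.46). Ezh2 and Bmi1, polycomb proteins known to repress the Cdkn2a locus, were higher, from 62.5 ± 2.78 to 128 ± 8.28 CPM and from 71.3 ± 1.53 to 106 ± 7.15 CPM. Cbx7, another polycomb repressor of the locus, was lower, from 248 ± 36.6 to 16.5 ± 3.35 CPM, and Foxo1, an activator of Cdkn1b, from 208 ± 23.0 to 23.2 ± 0.896 CPM. In edgeR their adjusted p-values were 3.72e-05, 0.000344, 9.53e-07 and 2.98e-07. Cbx7 shares 100 of 6487 exonic bases with Apobec3 on the opposite strand, which had 34.4 to 543 CPM. These 3 polycomb genes differed in both directions, and their part in the level of Cdkn2a was not tested.

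**Figure D5:**
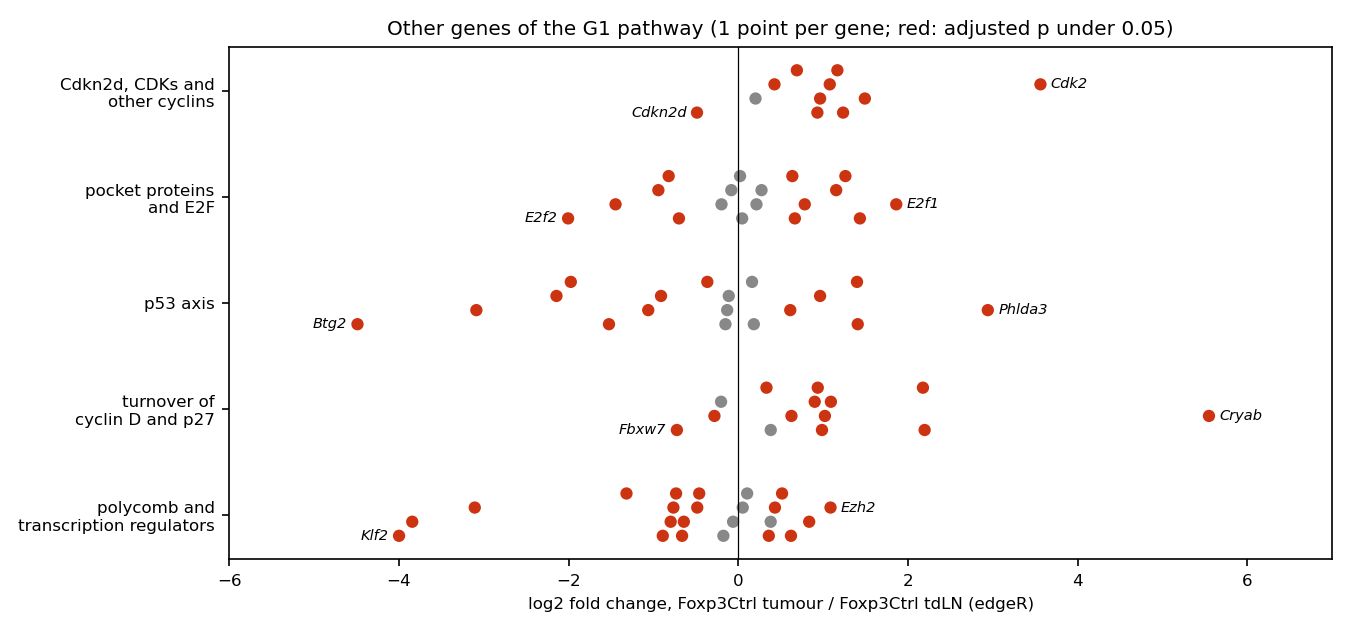
Log2 fold change of tumours over control nodes (horizontal axis) of every gene in the 5 pathway lists, 1 point per gene, red for an adjusted p under 0.05. Points of the CDK partners and of the turnover genes lie mostly above 0 (medians 0.97 and 0.92), and those of the regulators mostly below (median -0.46).

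The comparison of ΔJag1 with control nodes asked whether the G1 genes of the draining node depend on Jag1 in Foxp3-expressing cells. It shares the control nodes with the comparison of tissues. None of the 10 genes was called by edgeR, against a background of 0.038% of 18440 genes (7 genes), and 0 of the 10 had an unadjusted p under 0.05, against 3.15%. DESeq2 and limma-voom also called 0 of the 10. Summed erythroid and mammary markers did not overlap between the node groups. The 5 erythroid genes summed to 30.8 to 75.0 CPM in control nodes and 15.2 to 25.1 in ΔJag1 nodes. The 7 mammary epithelium genes summed to 12.6, 33.5 and 124 CPM in control nodes and 7.48 to 10.7 in ΔJag1 nodes. None of these genes was called by edgeR, though 5 of 5 erythroid and 4 of the 5 mammary genes tested had an unadjusted p under 0.05, and their part in the values below was not tested. The libraries of the groups overlapped for all 10 genes, while 7.29% of all genes did not overlap. The median log2 fold change was -0.04 for the 10 genes and -0.0045 for all genes tested.

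The D cyclins and Cdk6 lay close together in the nodes. Ccnd2 had 284, 309.7 and 293 CPM in ΔJag1 nodes 1 to 3, all within the control range, and a log2 fold change of -0.03 with a 95% interval of -0.19 to 0.14. Ccnd3 had 162, 159 and 165 CPM, all within the control range, and an interval of -0.15 to 0.13. For Ccnd1 the values were 63.9, 77.0 and 90.7 CPM, with node 1 below the control range and a wider interval of -0.64 to 0.40. Cdk6 had 56.9, 60.3 and 59.1 CPM, all within the control range, with an interval of -0.22 to 0.12. Differences of 2-fold between genotypes thus lay outside the intervals of these genes. Their edgeR adjusted p-values ran from 0.956 to 0.994.

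The INK4 genes Cdkn2a and Cdkn2b carried the largest genotype estimates of the 10, and both rested on a single library. Cdkn2a had 5.86, 3.62 and 3.39 CPM in ΔJag1 nodes, so that node 1 was above and the others were inside the control range (log2 fold change 0.23, 95% interval -0.31 to 0.77). Cdkn2b had 8.69, 5.01 and 4.98 CPM, again with node 1 far above the rest (0.40, -0.14 to 0.94). Without ΔJag1 node 1 the log2 fold changes were -0.05 for Cdkn2a and 0.09 for Cdkn2b. The edgeR adjusted p was 0.953 for both genes over all libraries. That node also had the highest adipocyte sum of the nodes, 251 CPM. Control node 3, next at 199 CPM, had 3.33 CPM of Cdkn2a and 4.71 CPM of Cdkn2b, the lowest and the middle value of the control nodes. Single libraries cannot decide the part of adipocytes in these values, which was not tested. Cdkn2c had 24.4, 25.4 and 28.4 CPM, all within the control range (-0.07, -0.37 to 0.22; edgeR adjusted p = 0.956).

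The CIP/KIP genes overlapped between genotypes as well. Cdkn1a had 34.7, 22.9 and 25.6 CPM in ΔJag1 nodes, of which 2 and 3 lay below the control range and 1 within it (log2 fold change -0.13, 95% interval -0.56 to 0.31). Cdkn1b had 217, 204 and 204 CPM, all within the control range, and an interval of -0.17 to 0.17. Cdkn1c had 4.50, 2.96 and 3.44 CPM, on both sides of the control range, and an interval of -0.54 to 0.41. Their edgeR adjusted p-values were 0.956, 1.000 and 0.982. Of INK4 counts per kb in ΔJag1 nodes, Cdkn2d supplied 56.9 to 65.6%, Cdkn2c 19.3 to 23.1%, Cdkn2b 7.69 to 13.3% and Cdkn2a 6.32 to 10.6%. These ranges overlapped those of the control nodes, the highest Cdkn2a and Cdkn2b shares being those of ΔJag1 node 1. Cdkn1b supplied 79.9 to 85.0% of CIP/KIP counts. In none of the 5 pathway lists was a gene called by edgeR. Of the 18 cycling cell genes 0 were called as well (median log2 fold change -0.21). All 18 nevertheless lay below 0, against 9436 of all 18440 genes tested, and their part in the cyclin values was not tested. The smallest p of each list belonged to Ccne1, Rb1, Btg2, Cul1 and Ets2, with log2 fold changes from -0.19 to -0.09 and an edgeR adjusted p of 0.953 each. Of the 84 genes in the 5 lists, 6 did not overlap between genotypes (7.14%, against 7.29% of all genes), namely Btg2, Ets2, Cdk2, Rbl2, Ccng1 and Rnf2, the last 4 named after their values were seen. Btg2 had 175 to 183 CPM in ΔJag1 nodes and 189.9 to 215 in control nodes.

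Genes most like each of the 10 were sought among 10241 genes with a mean of at least 10 CPM, by Pearson's r of log2 CPM over the 9 libraries. The libraries fall into nodes and tumours, so r mainly records that contrast and is given as a description. For Cdkn2a these were Ip6k1 and Ppm1m (r of 0.996 each), for Cdkn2b Taf1c and Iscu, and for Cdkn2c Lamp1 (0.997) and Ufc1. Among those of Cdkn1a was Gys1 (0.989), and among those of Cdkn1c was Emsy. For Ccnd1 they were Mrpl18 and Stt3b, for Ccnd2 S100a1 and Elf2, and for Cdk6 Map3k1 and Hdac1 (both 0.997). The genes without a called difference between tissues had other neighbours, Cdkn1b being nearest to Mdm2 (0.984) and Ccnd3 to Prpf3 (0.965) and Timeless (0.886). Between the 10 genes themselves, Cdkn2a and Cdkn2b had an r of 0.983 over the 9 libraries and of 0.65 for the deviations from the group means. Other pairs had stronger correlations of deviations, such as -0.794 for Cdkn1a and Ccnd2 and 0.698 for Cdkn1a and Ccnd3. ΔJag1 node 1 had the highest level of both Cdkn2a and Cdkn2b, and its part in the 0.65 was not tested.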

How the data were processed

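The members and lists were chosen with earlier results of these data known. The authors deposited raw read counts for each gene as whole numbers, in 1 table for nodes and 1 for tumours. The submitters' processing notes name Trimmomatic 0.36, STAR 2.5.2b, featureCounts of Subread 1.5.2 and the build GRCm38; annotation and strand setting: not given in the sources used here. Per the labels' protocols, RNA integrity numbers were over 9, whether poly(A) selection or rRNA depletion was used is not specified, and all samples carry batch 1. Of the 49315 identifiers, 49056 matched GENCODE M21, the source of symbols, positions and exon lengths. In the tumour table, 3 columns correspond to no labelled sample and were left out. Replicates are separate mice by their library names, and p-values measure the spread between these libraries.

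CPM used library totals. The test was edgeR's quasi-likelihood test (edgeR 4.0.16, R 4.3.3, with TMM, filterByExpr, robust dispersions, Benjamini-Hochberg adjustment over all genes tested, FDR 0.05), with 6 libraries per comparison. SEs came from the coefficient and its F statistic. Named pathway genes were, per list, the 2 with the smallest p in each direction between tissues among called genes whose groups did not overlap, and the 1 with the smallest p between genotypes. Protein-coding neighbours of Cdkn2a and the 2 genes most like each member were named too (some are not reported here), and Trp53, Mdm2, the E cyclins and the non-coding neighbours were added after their values were seen. Alternatives were DESeq2 size factors, totals only, TMM without immunoglobulin and mitochondrial genes, DESeq2 1.42.0, voom of limma 3.58.1, other filters on low counts, non-robust dispersions, a joint fit, a replicate block and leaving out each library. Library names give control node and tumour of a number the same mouse code, and their deviations from the group means correlated at -0.083, 0.127 and -0.003. Tested on simulated counts, the node fit over 18440 genes found 69 of 100 genes with a true 2-fold change and 92 of 100 with a 4-fold change, and 13 of its 174 calls were false. The tumour fit over 18566 genes found 50 and 86 of 100, and 6 of its 142 calls were false. Each simulation changed only these genes, all above a minimum mean count, whereas 13583 genes were called between the real tissues. The adjustment was thus stricter in the tumour simulation than between the real tissues. For the nodes it was more lenient in the simulation, with 174 calls against 7 in the real data. The shares found therefore do not carry over to either comparison.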

Additional observations from a re-analysis of the deposited data

How the results depend on the processing

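In all 16 alternatives 8 of the 10 genes were called between tumour and control node and 0 between the genotypes. Fitted with the replicate block, which pairs node and tumour of a mouse, 13375 genes were called between tissues against 13583 without it, and no call of the 10 genes changed. In the nodes, whose numbers are different mice (correlations -0.165, 0.034 and -0.124), the block gave 11 genes. Between genotypes edgeR called 7 genes (6 higher, 1 lower), DESeq2 44 (20 higher, 24 lower), edgeR without a filter 16, and leaving out 1 library 6 to 21, the most without control node 3 and 16 without ΔJag1 node 2. The small node estimates changed sign in places. Cdkn1b, at 0.0006 on the log2 scale, was -0.0015 with DESeq2 size factors, -0.0016 with DESeq2, -0.005 without a filter and -0.0074 in the joint fit. Ccnd3, at -0.0057, was 0.0161 with totals only and 0.0066 with a CPM of at least 1 in 3 libraries. Leaving out 1 library gave -0.0545 to 0.3856 for Cdkn2a, -0.312 to 0.054 for Cdkn1a, -0.061 to 0.0408 for Cdkn1b, -0.2392 to 0.0574 for Cdkn1c, -0.258 to 0.1175 for Ccnd1, -0.0689 to 0.008 for Ccnd2 and -0.0267 to 0.0129 for Ccnd3. Between tissues this gave -0.0412 to 0.2541 for Ccnd3, the lowest without tumour 2. The cause of these shifts was not tested. Cdkn2a and Cdkn2b in tumours rest on 10 to 38 counts a library, and 3 libraries a group limit every comparison.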
